A study of Mus musculus with 21 samples.

Results

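The p53 pathway and DNA damage target module comprises 34 genes, chosen by name as textbook members of the pathway. All 34 were found among the 16443 genes of the deposited expression table. By role, 3 are regulators (Trp53, Mdm2, Mdm4), 10 act in cell cycle arrest, 13 in apoptosis and 8 in repair, metabolism or secreted signalling. They were followed in 8 groups of mouse embryonic stem cells, formed by 4 lines and 2 media.

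The protein p53, encoded by Trp53 in the mouse, is a transcription factor that is held at a low level by the ubiquitin ligase Mdm2 and its partner Mdm4. Damaged DNA activates the kinases ATM and ATR, p53 escapes Mdm2, and it switches on genes that stop the cell cycle, repair DNA or trigger cell death. Mdm2 is itself a target, which closes a feedback loop. Embryonic stem cells are known for a high p53 level and for a weak arrest at the G1 checkpoint, and p53 acts largely after translation, so the RNA level of Trp53 is not a measure of p53 activity.

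All cells derive from 2TS22C, a mouse embryonic stem cell line. In 3 of the lines the endogenous SOX2 was silenced, the cells carried a lentivirus with a rescue factor, and doxycycline (DOX) was given; the sources used here do not name the promoter that drives the rescue factor. The rescue factor was SOX2 in the SOX2 line, SOX17FNV (an engineered version of the endoderm factor SOX17) in the FNV line, and a factor known from the labels only by its name in the miniSOX line. The control line, NTC, was not transduced, is labelled WT and lists no doxycycline. A rescue line therefore differs from NTC in virus, doxycycline and SOX factor together, and their contributions cannot be told apart. Each line was grown in serum with leukaemia inhibitory factor (SL) or in the same medium plus 2i, inhibitors of the kinases MEK and GSK3. In 2i there were 4 SOX2, 4 FNV, 2 miniSOX and 3 NTC libraries, and in SL there were 2 libraries of each line. The titles call 5 of the 2i libraries biological replicates and the rest only replicates, and no label says that those others are separate cultures, so the p-values measure the spread between these libraries, part of which may be technical. When the 2 numbered libraries of each first-deposited group were averaged into 1, 119 of the 190 called changes of members no longer passed.

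The values are normalised, rounded expression values with no unit of reads (see the processing notes), so sequencing depth is unknown. Library totals lay between 14044316 and 14047262. Sox2 itself was at 939 to 1509 in SOX2, 19 to 43 in FNV, 47 to 60 in miniSOX and 1310 to 2697 in NTC cells in 2i, which fits the labels of the silenced lines. Sox17 was at 1792 to 3301 in FNV and 1813 to 1953 in miniSOX cells in 2i. In SL it was at 13693 to 30391 and 4138 to 4179, and it was at 6 or below in every SOX2 and NTC library. A comparison of 2i with SL in FNV or miniSOX therefore also spans unlike Sox17 levels, whose part was not tested. The embryonic stem cell markers Pou5f1 and Nanog were high in every library (6245 to 16422 and 4525 to 21188). The libraries were deposited as an earlier set of 12 and a later set of 9, told apart by their record numbers and called the first and second wave here; no label names a batch or a date. The second wave holds every miniSOX library and, as the 5 biological replicates of the titles, the libraries whose columns are named p21 or p31 (a term the labels do not explain), all 5 of them in 2i. Wave was a term of the model, but in SL it rests on the 2i libraries, so line and wave cannot be told apart for miniSOX in SL. A pair of libraries stood apart: the p31 library of NTC in 2i had a summed level of the 12 stem cell markers of 59815, against 95868 and 97174 in the other NTC libraries in 2i, and the p31 library of FNV in 2i held 7 of the 10 outlying member values. Member calls in 2i against NTC that are described below and were lost without the NTC library are given with their values without it. For genes outside the module, single calls were not followed without that library. Whether their calls in 2i against NTC rest on it was not tested.

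**Figure D1:**
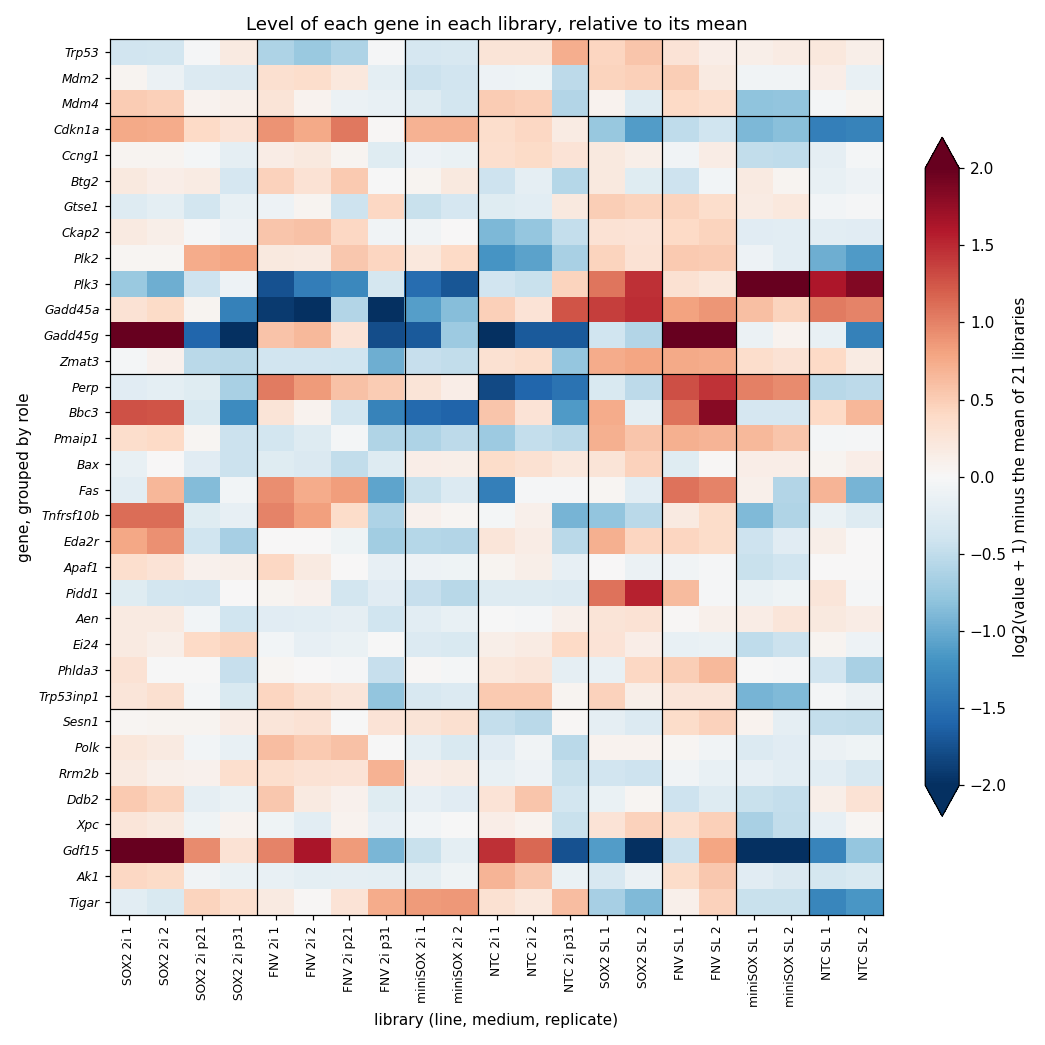
Level of each of the 34 members (rows, by role) in each of the 21 libraries (columns, by group), as log2(value + 1) minus the gene's mean over all libraries, with colour limited to 2 on either side. Cdkn1a is higher and Plk3 lower in the 2i block than in the SL block, and the untransduced libraries are low in Plk2 in both media.

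The summed level of the 34 members was 45959 to 58230 in SOX2, 42922 to 57024 in FNV, 45076 to 45294 in miniSOX and 48951 to 57274 in NTC cells in 2i. In SL it was 56350 to 59666 in SOX2, 57951 to 59710 in FNV, 40692 to 41038 in miniSOX and 47208 to 47383 in NTC cells. The SOX2, FNV and NTC ranges overlapped in 2i, and in SL both miniSOX libraries lay below every other library. Ccng1, Trp53inp1, Mdm4 and Ckap2 made up 36.9% to 51.3% of the sum, so the sum follows these 4 genes. In bulk RNA, fewer cells with a transcript and less of it per cell cannot be told apart.

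The first set of comparisons asked how each rescue line differs from untransduced cells. A gene was called changed when its adjusted p in limma was under 0.05 over all 16443 genes. In SOX2 cells in 2i 12 members rose and 5 fell against NTC, which is 50% of the members, beside 28.7% of all genes (14.4% higher, 14.3% lower). In FNV cells 9 rose and 8 fell, again 50%, beside 39.7% of all genes (19.7% higher, 20% lower). In miniSOX cells 6 rose and 5 fell, or 32.4%, beside 27.7% of all genes (14.3% higher, 13.5% lower). The module's median log2 change was 0.23, 0.07 and 0.07, beside medians of 0.02, -0.01 and -0.01 over all genes. In SL, 6 members rose and 0 fell in SOX2 cells, or 17.6%, beside 15% of all genes (7.35% higher, 7.63% lower). In FNV cells 11 rose and 2 fell, or 38.2%, beside 30% of all genes (14.2% higher, 15.8% lower). In miniSOX cells 4 rose and 1 fell, or 14.7%, beside 19.6% of all genes (9.44% higher, 10.2% lower). The medians were 0.26, 0.40 and 0.24, beside -0.01, -0.04 and -0.02 over all genes. Leaving out any 1 library of the SOX2 comparison in SL reduced its 6 calls to 2 or 3, and in miniSOX the 5 calls in SL were likewise reduced to 2 or 3. In 2i the SOX2 comparison had 11 calls without NTC replicate 1, and the miniSOX comparison had 7 without miniSOX replicate 2. The 3 comparisons in a medium share their NTC libraries, so like changes in them are not independent. Without the p31 library of NTC the calls in 2i numbered 13 (8 higher, 5 lower) for SOX2, 18 for FNV and 11 for miniSOX. For FNV the share of all genes called was then 38%, in place of 39.7%. The counts with a library left out are not read as results about the members.

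**Figure D2:**
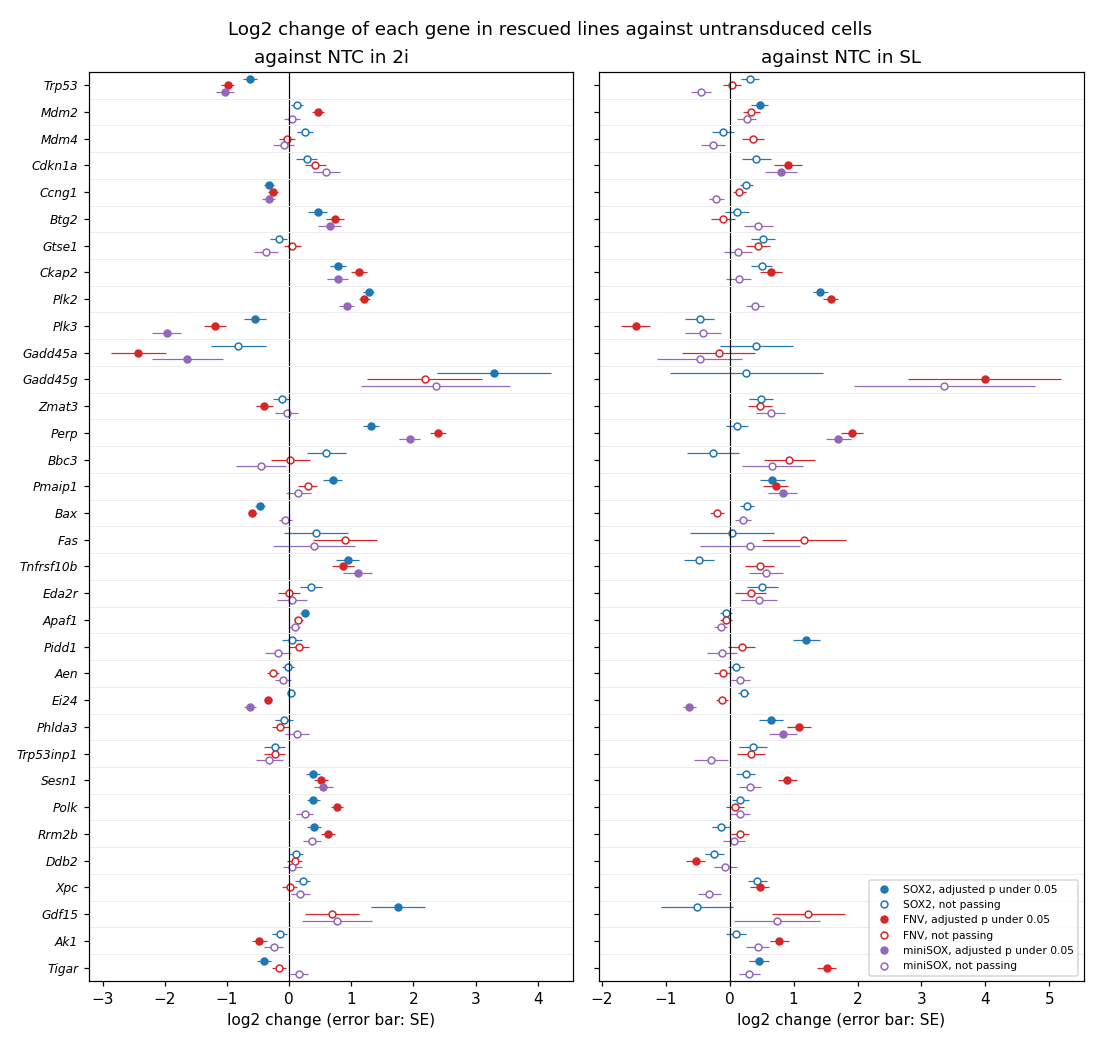
Log2 change of each member against NTC with its standard error, in 2i on the left and in SL on the right, for the SOX2, FNV and miniSOX lines. Filled symbols have an adjusted p under 0.05. In 2i Perp and Plk2 are filled and to the right in all 3 lines (0.93 to 2.40), and Plk3 is filled and to the left (-0.55 to -1.97).

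Among the regulators, Trp53 (chromosome 11, 69580359 to 69591873, plus strand, GRCm38) was lower in every rescue line than in NTC cells in 2i. Its values there were 1640, 1662, 2112 and 2429 in SOX2 cells, 1395, 1272, 1385 and 2099 in FNV cells, and 1686 and 1708 in miniSOX cells, against 2565, 2565 and 3536 in NTC cells. No rescue library reached the lowest NTC library. The log2 change was -0.63 ± 0.11 (SE) in SOX2 cells, -0.99 ± 0.11 in FNV cells and -1.03 ± 0.14 in miniSOX cells (limma adjusted p = 0.000558, 4.06e-06 and 7.93e-05). Without the p31 library of NTC it was -0.61 in SOX2 and -0.97 in FNV, and the calls of all 3 lines held.

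In SL the order was different. Trp53 was at 2864 and 3134 in SOX2, 2579 and 2351 in FNV and 2305 and 2394 in miniSOX cells, against 2463 and 2325 in NTC cells, and FNV and miniSOX overlapped NTC. None of the 3 changes against NTC passed (0.32 ± 0.14, 0.04 ± 0.14 and -0.45 ± 0.16 on the log2 scale, limma adjusted p = 0.126, 0.881 and 0.0646). The miniSOX value is net of the Trp53 wave term of 0.42 ± 0.08 (second minus first wave), which rests on the 2i libraries. The difference between media was itself tested for FNV against NTC, and it was -1.03 ± 0.17 (limma adjusted p = 0.000565). Between media, Trp53 fell in 2i against SL by 0.84 ± 0.13 in SOX2 cells and by 0.92 ± 0.13 in FNV cells on the log2 scale (limma adjusted p = 9.12e-05 and 4.04e-05). In NTC cells the change was 0.11 ± 0.13 and did not pass. A call in miniSOX cells (-0.47, limma adjusted p = 0.016) was lost when any single miniSOX library was left out.

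Mdm2, the ubiquitin ligase that degrades p53, varied less. In 2i it was at 2659, 2373, 2112 and 2092 in SOX2 cells, 3208, 3265, 2954 and 2240 in FNV cells and 1893 and 1971 in miniSOX cells, against 2394, 2413 and 1786 in NTC cells. The SOX2 and miniSOX libraries overlapped NTC, and 3 of the 4 FNV libraries lay above them. Mdm2 rose in FNV against NTC (0.46 ± 0.10, limma adjusted p = 0.00168), and in SOX2 and miniSOX the changes of 0.13 ± 0.10 and 0.05 ± 0.13 did not pass. In SL the values were 3481 and 3579 in SOX2, 3618 and 2896 in FNV and 2446 and 2446 in miniSOX cells, against 2818 and 2305 in NTC cells; the SOX2 call there (0.47 ± 0.13) was lost without either SOX2 library or NTC replicate 2 (0.32 to 0.61 over the libraries left out). Mdm4, which inhibits p53 at its promoters, passed against NTC in no line or medium. It rose in 2i against SL by 0.65 ± 0.15 in SOX2 cells (limma adjusted p = 0.00296), a call that also rested on single libraries, and its values ran between 3404 and 8466.

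**Figure D3:**
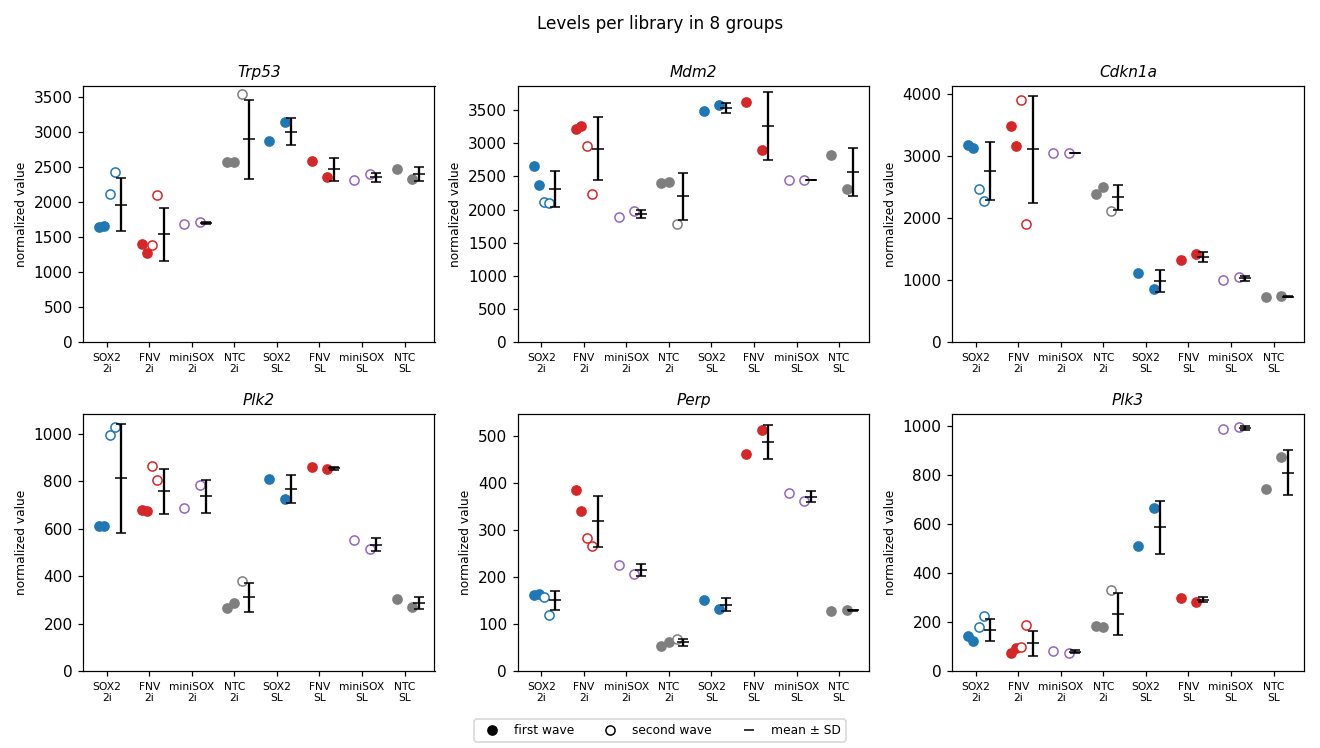
Normalised value of Trp53, Mdm2, Cdkn1a, Plk2, Perp and Plk3 in every library, by line and medium, with filled dots for the first wave and open dots for the second, and the mean with its SD per group. Cdkn1a lies at 1900 or above in every 2i library and at 1428 or below in every SL library, and Plk3 is lower in 2i than in SL within each line.

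Cdkn1a encodes p21, the cyclin-dependent kinase inhibitor through which p53 arrests cells in G1 (chromosome 17, 29090976 to 29100727, plus strand). It separated the media rather than the lines. In 2i it was at 3185, 3134, 2463 and 2267 in SOX2, 3481, 3159, 3897 and 1900 in FNV, 3056 and 3056 in miniSOX and 2384, 2503 and 2112 in NTC cells. In SL it was at 1114 and 864 in SOX2, 1321 and 1428 in FNV, 1002 and 1055 in miniSOX and 726 and 740 in NTC cells. The 2 media did not overlap in any line. The rise in 2i was 1.63 ± 0.20 in SOX2, 1.29 ± 0.20 in FNV, 1.57 ± 0.22 in miniSOX and 1.77 ± 0.20 in NTC cells (limma adjusted p = 1.53e-05, 0.000124, 6.55e-05 and 2.55e-05), and all 4 held under every alternative run. Against NTC in SL, Cdkn1a rose in FNV (0.91 ± 0.22, limma adjusted p = 0.00599) and in miniSOX (0.80 ± 0.25, limma adjusted p = 0.0385), the second of which was lost when any 1 of the 4 libraries was left out (0.77 to 0.84). Without the wave term, which rests on the 2i libraries, the miniSOX change in SL was 0.49 and did not pass (limma adjusted p = 0.201). In 2i no line passed against NTC.

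The polo-like kinase Plk2 (chromosome 13, 110395046 to 110400844, plus strand), a p53 target involved in centriole duplication and the checkpoint response, was higher in the rescue lines than in NTC. In 2i its values were 613, 613, 996 and 1028 in SOX2, 681, 674, 867 and 808 in FNV and 688 and 785 in miniSOX cells, against 264, 285 and 381 in NTC cells. In SL they were 811 and 726 in SOX2, 861 and 852 in FNV and 554 and 513 in miniSOX cells, against 304 and 270 in NTC cells. Every rescue library lay above every NTC library of its medium. The change in 2i was 1.28 ± 0.09, 1.21 ± 0.09 and 0.93 ± 0.12 for SOX2, FNV and miniSOX (limma adjusted p = 3.4e-07, 1.22e-07 and 4.8e-05). In SL it was 1.42 ± 0.12 for SOX2 and 1.58 ± 0.12 for FNV (limma adjusted p = 3.1e-06 and 3.81e-07). These 5 calls held under every alternative. The miniSOX change in SL, 0.39 ± 0.14, did not pass. That value is net of the Plk2 wave term of 0.50 ± 0.07 (second minus first wave), which rests on the 2i libraries.

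Plk3 (chromosome 4, 117128655 to 117133963, minus strand), a stress-activated kinase that can phosphorylate p53, went the other way. It was at 144, 122, 181 and 224 in SOX2, 71, 92, 98 and 188 in FNV and 83 and 73 in miniSOX cells in 2i, against 185, 177 and 329 in NTC cells. The miniSOX libraries lay below all NTC libraries, while 1 FNV library (p31) and 2 SOX2 libraries reached into the NTC range. Plk3 fell by 1.97 ± 0.23 in miniSOX and by 1.19 ± 0.18 in FNV on the log2 scale (limma adjusted p = 2.96e-05 and 0.000115). The SOX2 call (-0.55 ± 0.18) was lost in several alternatives, among them without the p31 library of NTC (-0.48, limma adjusted p = 0.13). In SL Plk3 was at 509 and 663 in SOX2, 299 and 283 in FNV and 985 and 997 in miniSOX cells, against 744 and 873 in NTC cells. There it fell in FNV (-1.47 ± 0.23, limma adjusted p = 0.000348). Plk3 fell in 2i against SL in every line, by 2.18 ± 0.22 in SOX2, 1.82 ± 0.22 in FNV, 3.65 ± 0.23 in miniSOX and 2.10 ± 0.22 in NTC cells on the log2 scale (limma adjusted p = 2.22e-06, 1.06e-05, 4.45e-08 and 1.08e-05), and within each line the media did not overlap.

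Ckap2, a microtubule-associated protein, rose in all 3 rescue lines in 2i. Its values were 3862, 3725, 3375 and 3185 in SOX2, 5051, 5154, 4581 and 3265 in FNV and 3265 and 3438 in miniSOX cells, against 1834, 1998 and 2446 in NTC cells. Every rescue library lay above every NTC library, while the rescue lines overlapped one another, and the changes were 0.79 ± 0.13, 1.12 ± 0.13 and 0.78 ± 0.17 (limma adjusted p = 0.000482, 8.6e-06 and 0.00305). Without the p31 library of NTC they were 1.03, 1.37 and 1.11, and all passed. In the second wave alone, with a single NTC library assumed to vary like the other groups, they were 0.42, 0.66 and 0.45, and none passed. Ckap2 values in SL were 4178 and 4137 in SOX2, 4524 and 4667 in FNV and 2932 and 2954 in miniSOX cells, against 2954 and 2919 in NTC cells. There the rise in FNV (0.65 ± 0.17, limma adjusted p = 0.00953) was lost when a single library was left out, and the SOX2 change of 0.50 ± 0.17 did not pass.

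Gadd45a, which binds PCNA and takes part in G2 arrest and repair, was at 78, 74, 196 and 49 in FNV against 414, 358 and 706 in NTC cells in 2i. All FNV libraries lay below all NTC libraries, and Gadd45a fell by 2.43 ± 0.44 on the log2 scale (limma adjusted p = 0.00047). In SOX2 cells in 2i Gadd45a was at 363, 388, 308 and 116, overlapped NTC and did not pass (-0.82 ± 0.44). The miniSOX libraries, at 138 and 163, lay below NTC, and their call (-1.64 ± 0.57, limma adjusted p = 0.0444) was lost without the p31 library of NTC (-1.05, limma adjusted p = 0.29). Gadd45a values in SL were 772 and 827 in SOX2, 519 and 546 in FNV and 452 and 405 in miniSOX cells, against 607 and 589 in NTC cells, and no line passed.

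Of the other cell cycle members, Btg2, an antiproliferative gene, rose in FNV in 2i (0.74 ± 0.15, limma adjusted p = 0.00115). Its calls in SOX2 (0.46) and miniSOX (0.65) were lost without the p31 library of NTC (0.42 and 0.60, limma adjusted p = 0.11 and 0.0894). Ccng1, cyclin G1, changed by -0.32, -0.26 and -0.33 in SOX2, FNV and miniSOX in 2i, and the FNV and miniSOX calls were lost without the p31 library of NTC (-0.21 and -0.26, limma adjusted p = 0.101 and 0.132). Zmat3, an RNA-binding splicing regulator, fell in 2i against SL by 0.73 ± 0.17 in SOX2 cells, 0.99 ± 0.17 in FNV cells and 0.80 ± 0.19 in miniSOX cells on the log2 scale (limma adjusted p = 0.0031, 0.000316 and 0.0042). Gtse1, expressed in G2 and S phase, passed against NTC nowhere.

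Among the apoptosis members, Perp (chromosome 10, 18845020 to 18857073, plus strand) passed in 12 of the 14 direct comparisons, more than any other member. It encodes a membrane protein that is both a p53 target in apoptosis and a part of desmosomes in epithelia. In 2i it was at 161, 163, 158 and 120 in SOX2, 386, 340, 283 and 267 in FNV and 225 and 206 in miniSOX cells, against 53, 62 and 67 in NTC cells. The 4 groups did not overlap. Perp rose by 1.32 ± 0.13, 2.40 ± 0.13 and 1.94 ± 0.17 (limma adjusted p = 7.24e-06, 7.05e-09 and 1.76e-06). The rise was also seen within each wave, at 1.48 and 1.03 for SOX2 and at 2.64 and 2.02 for FNV in the first and the second wave.

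In SL, Perp set FNV and miniSOX apart from the other lines. It was at 151 and 131 in SOX2, 462 and 513 in FNV and 380 and 363 in miniSOX cells, against 128 and 130 in NTC cells. It rose in FNV by 1.91 ± 0.17 and in miniSOX by 1.70 ± 0.20 against NTC (limma adjusted p = 1.82e-06 and 5.17e-05), and by 1.78 ± 0.17 and 1.58 ± 0.20 against SOX2 (limma adjusted p = 7.79e-06 and 8.88e-05). The SOX2 change against NTC was 0.12 ± 0.17 and did not pass. All of these calls held under every alternative; without the wave term the miniSOX values were 1.52 against NTC and 1.39 against SOX2.

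Perp was set beside the markers of other cell types. All 14 of 14 listed trophectoderm markers (an epithelium in which desmosomes form) were measured, and their sum in 2i was 893 to 1533 in SOX2, 5734 to 8187 in FNV, 3033 to 3075 in miniSOX and 1412 to 2905 in NTC cells. In SL that sum was 1826 to 2744 in SOX2, 3208 to 3357 in FNV, 20116 to 20151 in miniSOX and 11729 to 11773 in NTC cells. In 2i FNV and miniSOX lay above NTC in both Perp and this sum. In SL so did miniSOX, while FNV was above NTC in Perp and below it in the sum. SOX2 cells in 2i were above NTC in Perp, while their sum overlapped that of NTC. By single markers in 2i, 1 rose and 8 fell against NTC in SOX2 cells. In FNV 7 rose and 1 fell, and in miniSOX 3 rose and 2 fell. These are 64.3%, 57.1% and 35.7% of the list, beside 28.7%, 39.7% and 27.7% of all genes. The list's median log2 change was -1.04, 1.70 and -0.06, so the higher miniSOX sum was not a rise across the list.

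Of 14 fibroblast markers 12 were measured, and their sum in SL was 296 to 327 in SOX2, 1094 to 1125 in FNV and 1854 to 2045 in miniSOX cells, against 552 to 599 in NTC cells. FNV and miniSOX were thus above NTC and SOX2 there, as they were in Perp. In 2i the fibroblast sum was 190 to 271 in SOX2, 233 to 256 in FNV and 269 to 364 in miniSOX cells, against 156 to 224 in NTC cells. Of 16 endoderm markers 11 were measured, at 6057 to 8504 in SOX2, 11673 to 13647 in FNV and 9884 to 9997 in miniSOX cells, against 7472 to 9915 in NTC cells, in 2i. The endoderm sum in SL was 7669 to 8307 in SOX2, 11151 to 13303 in FNV and 16871 to 16997 in miniSOX cells, against 10998 to 11631 in NTC cells. By single markers, against NTC in SL, 0 of the 11 rose and 4 fell in FNV, and 0 rose and 3 fell in miniSOX cells. These are 36.4% and 27.3% of the list, beside 30% and 19.6% of all genes. Gata6 was at 0 to 1 in FNV and 8 to 17 in miniSOX, against 176 to 218 in NTC cells. The higher sums are thus not a rise across the list. The part of these markers in the Perp results was not tested.

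Bax and Ei24 fell in some rescue lines. Bax, the pore-forming protein of the mitochondrial pathway, was at 2818, 3135, 2677 and 2305 in SOX2 and 2635, 2566, 2219 and 2621 in FNV cells in 2i, against 4034, 3863 and 3619 in NTC cells. Neither line overlapped NTC, and the changes were -0.47 ± 0.08 and -0.59 ± 0.08 (limma adjusted p = 0.000934 and 6.89e-05). The miniSOX libraries, at 3405 and 3376, gave -0.06 ± 0.11, which did not pass. Ei24, a membrane protein of the endoplasmic reticulum induced by etoposide, was at 1256 and 1219 in miniSOX against 1632, 1686 and 1988 in NTC cells in 2i, and at 1068 and 1119 against 1563 and 1415 in SL. The groups did not overlap, and the change was -0.63 ± 0.09 in 2i and -0.63 ± 0.10 in SL (limma adjusted p = 0.000104 and 0.000756). In FNV it fell by 0.34 ± 0.07 on the log2 scale in 2i (limma adjusted p = 0.000969), and SOX2 passed in neither medium.

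Pmaip1 (Noxa), a BH3-only protein, was at 641, 658, 512 and 373 in SOX2 against 304, 359 and 344 in NTC cells in 2i. The groups did not overlap, and Pmaip1 rose by 0.70 ± 0.15 (limma adjusted p = 0.00367). The FNV values of 389, 418, 486 and 329 and the miniSOX values of 325 and 350 overlapped NTC, and neither line passed. In SL it was at 823 and 738 in SOX2, 819 and 802 in FNV and 783 and 738 in miniSOX cells, against 486 and 495 in NTC cells. The rescue lines lay above NTC without overlap, and the changes were 0.67, 0.72 and 0.83 (limma adjusted p = 0.0372, 0.0139 and 0.022). Each of these SL calls was lost when single libraries were left out. Without the wave term the miniSOX change in SL was 0.63 and did not pass (limma adjusted p = 0.0545).

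Pidd1, a scaffold that activates caspase-2, was high in SOX2 cells in SL. It was at 1142 and 1575 there, 836 and 531 in FNV and 494 and 507 in miniSOX cells, against 639 and 533 in NTC cells. The SOX2 libraries lay above all others, and the change against NTC was 1.20 ± 0.21 (limma adjusted p = 0.00173). Against SOX2, Pidd1 fell by 1.01 ± 0.21 in FNV and by 1.32 ± 0.24 in miniSOX on the log2 scale (limma adjusted p = 0.00347 and 0.00166); the FNV call was lost without FNV replicate 2 (lowest and highest values over the libraries left out, -1.34 and -0.68). In 2i Pidd1 was at 456, 417, 416 and 545 in SOX2, 561, 572, 418 and 460 in FNV and 394 and 368 in miniSOX cells, against 453, 451 and 445 in NTC cells, and no line passed.

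Phlda3, an inhibitor of Akt signalling, was at 762 and 852 in FNV and at 417 and 345 in NTC cells in SL, without overlap, and rose by 1.08 ± 0.19 (limma adjusted p = 0.000596). The SOX2 libraries in SL, at 491 and 718, and the miniSOX libraries, at 537 and 531, also lay above NTC, and their calls (0.65 and 0.83, limma adjusted p = 0.0312 and 0.016) were lost when single libraries were left out. Without the wave term these changes were 0.65 and 0.49, and neither passed (limma adjusted p = 0.113 and 0.16). In 2i Phlda3 was at 661, 537, 541 and 394 in SOX2, 557, 543, 535 and 394 in FNV and 552 and 528 in miniSOX cells, against 625, 643 and 479 in NTC cells. All 3 lines overlapped NTC there and none passed, with an FNV change of -0.14 ± 0.14. The death receptor Fas and the receptor Eda2r passed in none of the 14 direct comparisons. Fas was low throughout, at 16 to 92, and a change of its size had a standard error of 0.47 or more. Apaf1, the apoptosome scaffold, Aen, a nuclease, and Trp53inp1 did not pass against NTC in SL, and in 2i only Apaf1 in SOX2 cells did (0.25, limma adjusted p = 0.0126), a call lost without NTC replicate 1.

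In the repair and metabolism group, Tigar (chromosome 6, 127085116 to 127109557, minus strand) differed between lines in SL and not in the same way in 2i. Tigar is a fructose bisphosphatase that lowers glycolysis and protects against oxidative stress. In SL it was at 663 and 566 in SOX2, 1124 and 1446 in FNV and 774 and 769 in miniSOX cells, against 424 and 466 in NTC cells. All rescue libraries lay above NTC and FNV lay highest, with a rise of 1.52 ± 0.15 against NTC and 1.06 ± 0.15 against SOX2 (limma adjusted p = 4.35e-06 and 0.000208). In 2i Tigar was at 909, 848, 1423 and 1317 in SOX2, 1186, 1068, 1272 and 1755 in FNV and 1894 and 1918 in miniSOX cells, against 1298, 1216 and 1617 in NTC cells. FNV and NTC overlapped there, and the change was -0.16 ± 0.11, which did not pass. Tigar was called lower in SOX2 than in NTC cells in 2i (-0.46 without the p31 library of NTC, limma adjusted p = 0.0238). It was called higher in miniSOX than in SOX2 cells in 2i. Both calls were lost when single libraries were left out.

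The difference of the FNV change between 2i and SL was -1.67 ± 0.19 for Tigar (limma adjusted p = 1.88e-05) and held under every alternative. Within lines, Tigar rose in 2i against SL by 0.60 ± 0.13 in SOX2, 1.30 ± 0.15 in miniSOX and 1.46 ± 0.14 in NTC cells (limma adjusted p = 0.00232, 9.82e-06 and 4.06e-06). In FNV the change was -0.22 ± 0.13 and did not pass. The Tigar locus overlaps the annotated gene Platr31 over 9261 bases, and reads of the 2 genes cannot be told apart without strand information.

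Ak1, an adenylate kinase, also differed between media. Its SL values were 653 and 735 in FNV cells, against 396 and 409 in NTC cells, and in 2i it was at 453, 441, 445 and 441 in FNV cells, against 808, 733 and 461 in NTC cells. FNV lay above NTC in SL and below it in 2i, with changes of 0.78 ± 0.15 and -0.48 ± 0.12 (limma adjusted p = 0.00148 and 0.00448). The difference between media was -1.26 ± 0.19 (limma adjusted p = 0.000269). It held under every alternative, although the change in 2i did not pass within the second wave (-0.06).

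Repair genes moved less. Polk, a translesion polymerase, rose in FNV in 2i by 0.77 ± 0.10 (limma adjusted p = 4.4e-05). Rrm2b, the p53-inducible ribonucleotide reductase subunit, was at 423, 409, 404 and 539 in FNV against 302, 312 and 245 in NTC cells in 2i, without overlap, and rose by 0.63 ± 0.11 (limma adjusted p = 0.000371). Sesn1, an inhibitor of mTORC1 signalling, rose in FNV in both media (0.51 ± 0.11 in 2i and 0.90 ± 0.15 in SL, limma adjusted p = 0.00235 and 0.000439), although within the second wave the 2i value was 0.11. Polk, Rrm2b and Sesn1 were also called higher in SOX2 cells in 2i, and Sesn1 in miniSOX cells. Each of these calls was lost when single libraries were left out. Without the p31 library of NTC the SOX2 changes were 0.35, 0.24 and 0.60 (limma adjusted p = 0.0574, 0.132 and 0.000613). The Sesn1 change in miniSOX was then 0.84 (limma adjusted p = 0.000421). Ddb2 and Xpc, which recognise ultraviolet damage, passed against NTC only in FNV in SL (-0.53 and 0.47, limma adjusted p = 0.0157 and 0.0288), and both calls were lost when single libraries were left out. Ddb2 overlaps the measured gene Acp2 on the opposite strand over 2527 bases.

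A further set of members depended on the wave. Within the groups in 2i, 5 members were higher and 15 lower in the second wave than in the first, beside 37.7% of all genes (18.5% higher, 19.2% lower). Gadd45g, a growth arrest gene of the Gadd45 family, was at 749, 819, 16 and 11 in SOX2 cells in 2i, where the first 2 values are first-wave and the others second-wave libraries, against 11, 15 and 15 in NTC cells. The 2 waves of SOX2 cells did not overlap. The modelled rise of 3.30 ± 0.92 (limma adjusted p = 0.0154) was 5.82 within the first wave and -0.16 within the second, and it was lost without either first-wave SOX2 library or either first-wave NTC library. In FNV and miniSOX cells in 2i Gadd45g was at 75, 79, 61 and 14 and at 15 and 30, and neither passed against NTC. In SL Gadd45g was at 38 and 33 in SOX2, 449 and 518 in FNV and 46 and 53 in miniSOX cells, against 45 and 19 in NTC cells. The FNV libraries lay above all others, and the rise of 3.99 ± 1.20 (limma adjusted p = 0.0212) was lost when single libraries were left out.

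Gdf15, a secreted stress cytokine, was at 563, 637, 166 and 106 in SOX2, 172, 268, 156 and 45 in FNV and 63 and 75 in miniSOX cells in 2i, against 240, 193 and 25 in NTC cells. All 3 lines with both waves had their lowest values in the second wave, whose modelled difference from the first was -2.08 ± 0.35 (limma adjusted p = 0.000516). In SL Gdf15 was at 39 and 21 in SOX2, 64 and 150 in FNV, 13 and 19 in miniSOX and 34 and 50 in NTC cells. It rose in 2i against SL by 4.29 ± 0.53 in SOX2 cells (limma adjusted p = 1.62e-05), which held under every alternative, and was 3.25 without the wave term. The rise against NTC in SOX2 cells in 2i (1.75 ± 0.44, limma adjusted p = 0.00857) was lost without the p31 library of NTC (1.27, limma adjusted p = 0.0777).

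Bbc3 (Puma), a BH3-only protein, was at 877, 864, 293 and 150 in SOX2, 431, 380, 281 and 143 in FNV and 122 and 119 in miniSOX cells in 2i, against 529, 437 and 164 in NTC cells. The second wave lay lower in each line, by 1.53 ± 0.25 on the log2 scale (limma adjusted p = 0.000347), and no line passed against NTC. Bbc3 values in SL were 605 and 315 in SOX2, 772 and 1284 in FNV and 287 and 287 in miniSOX cells, against 475 and 575 in NTC cells, and again no line passed against NTC.

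Tnfrsf10b, the mouse TRAIL receptor, was at 542, 543, 211 and 221 in SOX2, 497, 438, 321 and 162 in FNV and 265 and 255 in miniSOX cells in 2i, against 241, 268 and 130 in NTC cells, and the lines overlapped NTC once the waves are pooled. With the wave term it rose by 0.94 ± 0.18, 0.87 ± 0.18 and 1.10 ± 0.23 (limma adjusted p = 0.00125, 0.00115 and 0.00244). Without that term the values were 0.75, 0.68 and 0.35, and none passed. Within the first wave they were 1.09 for SOX2 and 0.87 for FNV, and both passed. Within the second wave they were 0.73, 0.81 and 0.99, and none passed (limma adjusted p = 0.299, 0.203 and 0.131). Tnfrsf10b values in SL were 143 and 170 in SOX2, 281 and 322 in FNV and 134 and 164 in miniSOX cells, against 227 and 208 in NTC cells, and no line passed against NTC. It rose in 2i against SL in SOX2 cells by 1.69 ± 0.21 (limma adjusted p = 1.73e-05), a call lost without the wave term (1.13).

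**Figure D4:**
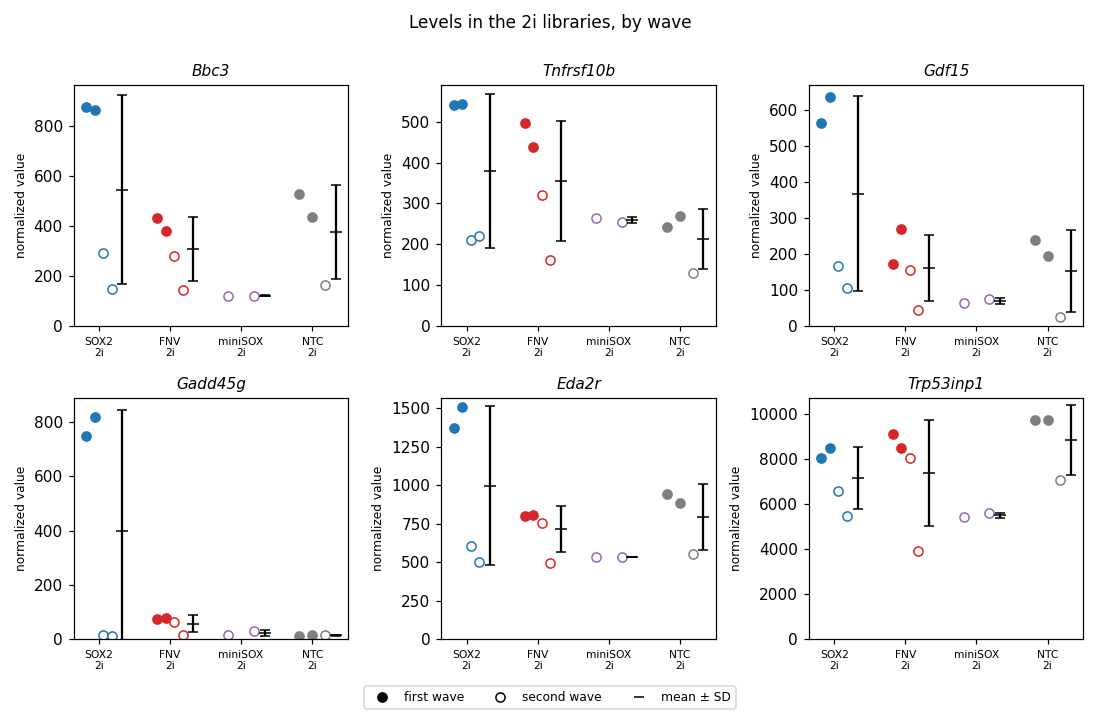
Normalised value of Bbc3, Tnfrsf10b, Gdf15, Gadd45g, Eda2r and Trp53inp1 in each 2i library, by line and by wave, with the mean and SD of each set; an SD bar that would run below 0 is cut at the axis. In SOX2 cells the first-wave libraries lie above the second-wave ones for all 6 genes, most widely for Gadd45g (749 and 819 against 16 and 11).

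The next comparisons set the FNV and miniSOX lines against the SOX2 line, the rescue by the factor that was silenced. In 2i, 3 members rose and 6 fell in FNV, or 26.5%, beside 25.2% of all genes (12.4% higher, 12.9% lower). In miniSOX 3 rose and 4 fell, or 20.6%, beside 14.9% of all genes (7.32% higher, 7.57% lower). In SL, 8 rose and 4 fell in FNV, or 35.3%, beside 21.4% of all genes (10.2% higher, 11.2% lower). In miniSOX 2 rose and 6 fell, or 23.5%, beside 21.6% of all genes (10.4% higher, 11.2% lower). The medians lay between -0.09 and 0.02 in these 4 comparisons. Perp and Ei24 were the members whose calls in FNV in 2i held under every alternative, with 1.07 ± 0.12 and -0.37 ± 0.06 (limma adjusted p = 1.54e-05 and 0.000487). In SL those members were Perp and Tigar. In miniSOX, Ei24 fell against SOX2 by 0.67 ± 0.08 in 2i and by 0.85 ± 0.10 in SL on the log2 scale (limma adjusted p = 9.02e-05 and 6.24e-05). Of the 12 FNV calls in SL, 10 were lost when single libraries were left out, and without FNV replicate 2 of that medium 3 calls were made. In 2i the 9 FNV calls became 17 without the p21 library of FNV and 6 without SOX2 replicate 2, and the 7 miniSOX calls became 2 without miniSOX replicate 1. For FNV the share of all genes called was then 30.2% and 18.9%, in place of 25.2%.

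The effect of 2i was compared with SL within each line. In SOX2 cells 10 members rose and 8 fell, or 52.9%, beside 44.9% of all genes (22.3% higher, 22.5% lower). In FNV cells 8 rose and 12 fell, or 58.8%, beside 40.6% of all genes (20.3% higher, 20.4% lower). In miniSOX cells 10 rose and 8 fell, or 52.9%, beside 33.4% of all genes (17% higher, 16.4% lower). In NTC cells 7 rose and 3 fell, or 29.4%, beside 24.6% of all genes (11.9% higher, 12.8% lower). The medians over the members were 0.02, -0.23, 0.01 and 0.04, beside 0.00, 0.03, -0.02 and 0.00 over all genes. Cdkn1a (higher) and Plk3 (lower) passed in all 4 lines under every alternative. Tigar held in SOX2, miniSOX and NTC cells, and Trp53 in SOX2 and FNV cells. In SOX2 cells Pidd1 (-1.51 ± 0.19) and Bax (-0.48 ± 0.10) also held, in miniSOX cells Pmaip1 (-1.17 ± 0.20) and Perp (-0.78 ± 0.17), and in FNV cells Zmat3. Without FNV replicate 1 in SL the FNV comparison had 13 calls in place of 20, and leaving out any 1 miniSOX library reduced the 18 calls of that line to 8 to 10. The share of all genes called was then 31.8% for FNV and 22.4% to 23.1% for miniSOX.

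**Figure D5:**
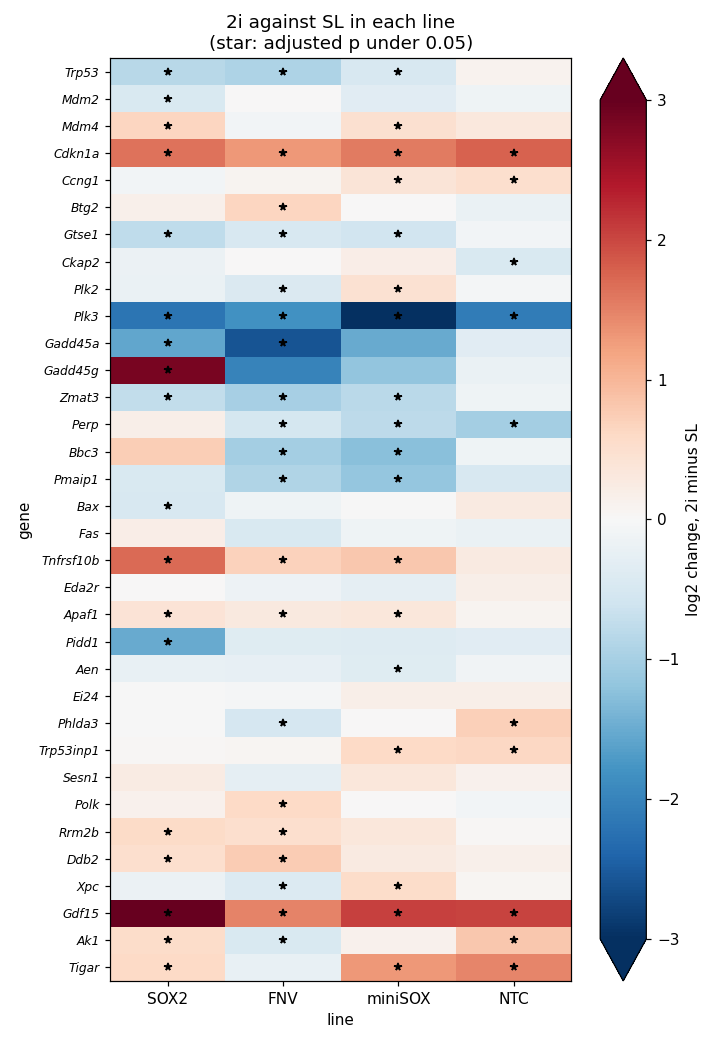
Log2 difference of 2i minus SL for each member (rows) in the 4 lines (columns), with colour limited to 3 on either side and a star where the adjusted p is under 0.05. Cdkn1a is higher and Plk3 lower in 2i in all 4 lines, while Tigar and Ak1 are higher in NTC and SOX2 cells and not in FNV cells.

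Whether the lines differed between the media in their departure from a control was tested for FNV. Against NTC the difference between media passed for 3 members upward and 7 downward, beside 25.8% of all genes (13.4% higher, 12.4% lower), with a median of -0.38 (0.03 over all genes). Tigar, Ak1, Phlda3 (-1.23 ± 0.24, limma adjusted p = 0.00151) and Trp53 were among those downward, and Polk (0.68 ± 0.17, limma adjusted p = 0.00895), Btg2 and Ddb2 were upward. Against SOX2 it passed for 1 member upward, Pidd1 (1.14 ± 0.25, limma adjusted p = 0.00615), and for 8 downward, beside 20.8% of all genes (10.7% higher, 10.1% lower). These tests share the FNV libraries. Sox17 in FNV cells was at 1792 to 3301 in 2i and 13693 to 30391 in SL, and its part in these differences was not tested. Without NTC replicate 2 in SL, 6 members passed in the test against NTC in place of 10. In the test against SOX2, 4 passed without FNV replicate 2 in SL and 14 without the p21 library of FNV, in place of 9. The share of all genes called was 20.2% against NTC without NTC replicate 2 in SL. Against SOX2 it was 27.4% without the p21 library of FNV.

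Of the other pathway genes outside the module, known targets were read from a list of 29, of which 28 were measured. In 2i against NTC, 7 rose and 3 fell in SOX2, 10 rose and 5 fell in FNV and 7 rose and 4 fell in miniSOX cells. That is 35.7%, 53.6% and 39.3% of the list, beside the 28.7%, 39.7% and 27.7% of all genes called in these comparisons. Steap3, a metalloreductase, had the smallest adjusted p in all 3, with changes of 1.54 ± 0.11, 3.41 ± 0.11 and 3.38 ± 0.15 (limma adjusted p = 5.93e-07, 4.71e-11 and 2.76e-09). In SL it fell against NTC in FNV (-1.19 ± 0.15, limma adjusted p = 3.98e-05). Klhl26 also rose in all 3 lines in 2i (1.12, 1.83 and 1.97, limma adjusted p = 0.00058, 2.96e-06 and 4.21e-05). Calls of these and the other listed genes outside the module were not followed with single libraries left out.

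Of 20 upstream genes (damage sensors, kinases and repair partners), 19 were measured. In 2i against NTC 2 rose and 3 fell in SOX2, 5 rose and 9 fell in FNV, and 2 rose and 5 fell in miniSOX cells. The shares called, 26.3%, 73.7% and 36.8%, stand beside 28.7%, 39.7% and 27.7% of all genes, so the SOX2 share was near that of all genes. Brca1, a homologous recombination factor, fell by 0.86 ± 0.09 in SOX2 cells, 0.57 ± 0.09 in FNV cells and 0.93 ± 0.12 in miniSOX cells on the log2 scale (limma adjusted p = 1.89e-05, 0.000265 and 7.66e-05). The kinase gene Atm fell by 0.38 ± 0.07 in SOX2 and by 0.43 ± 0.07 in FNV cells (limma adjusted p = 0.000701 and 0.000124). H2afx, the histone variant phosphorylated at breaks, rose by 0.90 ± 0.14 in SOX2 and by 1.54 ± 0.18 in miniSOX cells (limma adjusted p = 0.000246 and 2.11e-05).

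Among 20 further regulators and relatives of p53, of which 19 were measured, Ppp1r13b (ASPP1), which directs p53 to apoptotic genes, rose against NTC in 2i by 0.95 ± 0.20 in SOX2 cells, 2.67 ± 0.20 in FNV cells and 1.56 ± 0.26 in miniSOX cells (limma adjusted p = 0.00277, 1.36e-07 and 0.000496). The acetyltransferase gene Ep300 fell by 0.58 ± 0.10 in SOX2 cells on the log2 scale (limma adjusted p = 0.000858). In all, 4 of the 19 rose and 4 fell in SOX2, 7 rose and 5 fell in FNV and 4 rose and 5 fell in miniSOX cells (42.1%, 63.2% and 47.4%, beside 28.7%, 39.7% and 27.7% of all genes). In 2i against SL 1 rose and 11 fell in SOX2, beside 22.3% higher and 22.5% lower over all genes. In FNV 4 rose and 7 fell (all genes 20.3% and 20.4%), in miniSOX 1 rose and 5 fell (all genes 17% and 16.4%), and in NTC cells 1 rose and 8 fell (all genes 11.9% and 12.8%).

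Of 16 genes of the mitochondrial death pathway outside the module, 14 were measured. Bmf, a BH3-only gene, fell against NTC in 2i, with log2 changes of -2.52 ± 0.34 in SOX2 cells, -3.69 ± 0.34 in FNV cells and -2.89 ± 0.44 in miniSOX cells (limma adjusted p = 0.000111, 1.06e-06 and 0.000257). Bcl2l11 (Bim), whose product is marked for degradation by ERK signalling, fell in 2i against SL by 1.99 ± 0.17 in FNV and by 2.35 ± 0.17 in NTC cells (limma adjusted p = 3.81e-07 and 3.4e-07). In 2i against NTC 2 of the list rose and 3 fell in SOX2, 1 rose and 3 fell in FNV, and 1 rose and 2 fell in miniSOX cells (35.7%, 28.6% and 21.4%, beside 28.7%, 39.7% and 27.7% of all genes).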

How the data were processed

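Poly(A) RNA was taken with Trizol and oligo(dT) beads and converted with random hexamers, per the labels' protocols. RSEM and Bowtie2 2.0 with the mm10 genome were used, per the submitters' processing notes. The deposited table holds a normalised score per gene and library, whole numbers that the authors had made nearly equal in distribution between libraries: the sorted values of any pair of libraries differ by at most 3. The normalisation software and the strandedness are not given in the sources used here. Depth is therefore unknown, and intervals that depend on it are not given.

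All 21 libraries and 8 groups entered 1 model in limma 3.58.1 (R 4.3.3; intensity trend and robust variance) on log2(value + 1), with group and wave as terms, which left 12 residual degrees of freedom. This scale understates changes of low genes. P-values are two-sided and adjusted by Benjamini-Hochberg over 16443 genes, with a threshold of 0.05; a minimum value of 1 in 2 or more libraries removed 0 genes. The test for counts that the plan named for raw counts was not used, since the values are not counts.

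Columns were assigned by name; the 5 p21 and p31 columns match a group only, carry no number and were placed in the second wave because all other records of their groups have a column. The members, lists and alternatives were chosen with earlier results of these data known. Values in every library are given for Trp53, Mdm2 and Cdkn1a, and for members that passed in at least 1 comparison with an absolute log2 change of at least 1 and a group mean of 20 or more (16 members); others given for single libraries (Bax, Ei24, Rrm2b, Ak1) were chosen after their values were seen. From each further list at most 4 genes with the smallest adjusted p in a comparison are named. Locations are from GENCODE M21 (GRCm38), in which all 34 identifiers were found and 13 members overlap another annotated gene.

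The script was tested on simulated data. Alternatives were pseudocounts of 0.1 and 10, only genes with a mean of 50 or more, quantile normalisation repeated, no wave term, each wave alone, averages of the first-wave replicates, a replicate block, only the groups compared, and each library left out in turn. The fit to the numbered libraries without the block was added after seeing the data. Figures were drawn with matplotlib 3.10.9.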

Additional observations from a re-analysis of the deposited data

Results flagged for a closer look

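Dixon's test at its 95% critical value for 4 libraries was run for the SOX2 and FNV groups in 2i, 68 sets of 4 values in all, and it marked 10. Chance marks about 1 in 20 when the 4 values come from 1 normal distribution and the sets are independent. Each set here joins 2 libraries of each wave, and the genes share their libraries, so that rate is no yardstick for the 10. The p31 library of FNV was the outlying one in 7: Trp53 at 2099, Zmat3 at 534, Fas at 20, Eda2r at 491, Phlda3 at 394, Polk at 517 and Rrm2b at 539. The p21 library of FNV was the outlier for Bax, at 2219. In SOX2 cells the p31 library was the outlier for Btg2, at 463, and for Perp, at 120. Without the p31 library of FNV, 19 members passed in FNV against NTC in 2i in place of 17, and 9 against SOX2. The share of all genes called was then 40% against NTC and 24% against SOX2.

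The FNV change differed between 2i and SL, by the interaction term of the limma model, for 10 members against NTC and for 9 against SOX2. Against NTC the differences on the log2 scale (2i minus SL) were -1.03 for Trp53, -0.40 for Ccng1, 0.84 for Btg2, -2.26 for Gadd45a and -0.87 for Zmat3. They were -1.23 for Phlda3, 0.68 for Polk, 0.62 for Ddb2, -1.26 for Ak1 and -1.67 for Tigar. Against SOX2 they were -0.74 for Mdm4, -4.85 for Gadd45g, -0.71 for Perp, -1.77 for Bbc3 and -1.01 for Tnfrsf10b. They were 1.14 for Pidd1, -2.80 for Gdf15, -1.01 for Ak1 and -0.81 for Tigar. Calls that rest on single libraries were Ccng1, Btg2, Gadd45a, Zmat3 and Ddb2 against NTC, and Mdm4, Gadd45g, Perp, Bbc3, Tnfrsf10b and Gdf15 against SOX2.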

How the results depend on the processing

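Of the 190 called member changes, 49 in 15 members held under every alternative run, and in all 3 rescue lines in 2i those included Perp and Plk2. Pseudocounts of 0.1 and 10, the filter at a mean of 50 and a repeated quantile normalisation left 188, 190, 190 and 190 of the 190 called. Most losses came without the wave term (79), with first-wave replicates averaged (119), and in the second wave alone (49 of 79), where NTC has 1 library; averaging leaves fewer libraries, and the other causes were not tested. Unknown depth limits statements on low genes such as Fas and Gadd45g. The main numbers of changed members in 2i against NTC were 17 (SOX2), 17 (FNV) and 11 (miniSOX).

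Signs turned for Gadd45g (-0.16) in SOX2 against NTC and for Zmat3 (0.09) in FNV against NTC in 2i in the second wave alone. For miniSOX against SOX2 Tnfrsf10b in SL was -0.07 without the wave term, with the compared groups only and in the numbered libraries with or without the block. In the numbered libraries, with or without the block, Trp53 was 0.04 and Plk2 0.26 in 2i.

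Without the wave term the changed members numbered 9 for SOX2 against NTC in 2i and 2 in SL, 3 (2i) and 5 (SL) for FNV against SOX2, 3 for miniSOX against SOX2 in 2i, 13 and 8 for 2i against SL in FNV and miniSOX, and 6 and 2 for the FNV difference between media against NTC and SOX2. With first-wave replicates averaged they were, against NTC, 5 for SOX2 and 6 for miniSOX in 2i and 1, 4 and 2 for SOX2, FNV and miniSOX in SL; against SOX2, 2 and 2 for FNV and miniSOX in 2i and 2 and 4 in SL; for 2i against SL, 9, 5, 11 and 3 in SOX2, FNV, miniSOX and NTC; and, for the differences between media, 2 against NTC and 0 against SOX2 (7 members had an unadjusted limma p under 0.05 there). In the second wave alone they were 3, 7 and 5 for SOX2, FNV and miniSOX against NTC, 2 and 3 for FNV and miniSOX against SOX2, and 11 for miniSOX in 2i against SL. In the first wave alone they were 19 and 21 for SOX2 and FNV against NTC in SL, 20 for FNV against SOX2 in 2i, and 17 and 16 for the differences between media. With the compared groups only they were 21 (2i) and 20 (SL) for miniSOX against NTC, 3 for FNV against SOX2 in 2i, 18 for miniSOX against SOX2 in SL, 10 and 16 for 2i against SL in FNV and NTC, and 6 for the FNV difference against NTC. The share of all genes called moved as well. For FNV against SOX2 in 2i it was 25.2% in the main fit and 16.4% without the wave term. It was 9.43% with replicates averaged, 5.14% in the second wave alone, 34.4% in the first wave alone and 17.8% with the compared groups only. These counts are therefore not read as results about the members.

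The replicate numbers do not pair the libraries: of 28 pairs of groups, 0 had a correlation of same-numbered deviations over 0.1 (-0.09 to 0.09). With the replicate number as a block, which uses the numbered libraries and no wave term, the counts were 22 for miniSOX against NTC in 2i, 21, 22 and 20 for SOX2, FNV and miniSOX against NTC in SL, 20 and 23 for FNV and miniSOX against SOX2 in 2i, 19 and 21 in SL, 17 for 2i against SL in NTC, and 20 and 20 for the differences between media. Those libraries without the block, a fit chosen after seeing the data, gave 23, then 21, 22 and 20, then 21 and 23, 19 and 21, 17, and 21 and 20. With the block, 36.7% of all genes were called for FNV against SOX2 in 2i, beside 25.2% in the main fit. For 2i against SL in NTC cells the shares were 38.5% and 24.6%.

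Leaving out each library in turn gave, against NTC in 2i, 11 to 19 for SOX2, 16 to 19 for FNV and 7 to 11 for miniSOX, and in SL 2 to 3, 9 to 12 and 2 to 3. Against SOX2 it gave 6 to 17 and 2 to 6 for FNV and miniSOX in 2i, and 3 to 9 and 6 to 7 in SL. For 2i against SL it gave 15 to 19, 13 to 20, 8 to 10 and 7 to 11 in SOX2, FNV, miniSOX and NTC, and for the differences between media 6 to 14 against NTC and 4 to 14 against SOX2. The low counts came without NTC replicate 1 (SOX2 against NTC, 2i), miniSOX replicate 2 (miniSOX against NTC, 2i), FNV replicate 2 (FNV against SOX2, SL), FNV SL replicate 1 (2i against SL, FNV) and NTC SL replicate 2 (difference against NTC), and the count of 17 without FNV p21. The share of all genes called moved too. For FNV against SOX2 in 2i it was 18.9% without SOX2 replicate 2 and 30.2% without FNV p21, beside 25.2% in the main fit.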

Other observations

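Immediate early and MAPK stress genes, downstream of the kinase that 2i inhibits, were followed as a list of 16, of which 13 were measured. In 2i against SL 3 rose and 6 fell in SOX2, 2 rose and 5 fell in FNV, 0 rose and 9 fell in miniSOX, and 0 rose and 5 fell in NTC cells. The shares called were 69.2%, 53.8%, 69.2% and 38.5%, beside 44.9%, 40.6%, 33.4% and 24.6% of all genes. The phosphatase gene Dusp6 fell by 3.67 ± 0.54 in FNV and by 2.37 ± 0.55 in NTC cells on the log2 scale (limma adjusted p = 8.17e-05 and 0.006). Ier3, a survival gene, fell against NTC in FNV by 1.64 ± 0.18 in 2i and by 4.16 ± 0.24 in SL (limma adjusted p = 6.53e-06 and 3.3e-08). Of 18 proliferation genes, all measured, 1 rose and 8 fell in SOX2, 0 rose and 12 fell in FNV, 2 rose and 4 fell in miniSOX and 1 rose and 11 fell in NTC cells in 2i against SL. These are 50%, 66.7%, 33.3% and 66.7% of the list, beside 44.9%, 40.6%, 33.4% and 24.6% of all genes. The miniSOX share was near that of all genes, and the SOX2 share was little above it. Mki67 fell by 0.90 ± 0.08 in NTC cells (limma adjusted p = 3.01e-06), and Foxm1 fell by 0.65 ± 0.08 in FNV cells while it rose by 0.46 ± 0.08 in NTC cells (limma adjusted p = 1.86e-05 and 0.00107).

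Integrated stress response genes, targets of ATF4 that share Atf3 and Sesn2 with other lists, were all measured (22). In FNV against SOX2 8 rose and 1 fell in SL (40.9%, beside 21.4% of all genes), and 0 rose and 4 fell in 2i (18.2%, beside 25.2%). In miniSOX against SOX2 in SL 6 rose and 2 fell (36.4%, beside 21.6% of all genes), with Cebpb at 4.27 ± 0.54 (limma adjusted p = 9.26e-05); wave and line cannot be told apart there. Against NTC in 2i 4 of the list rose and 1 fell in SOX2, 3 rose and 6 fell in FNV, and 3 rose and 2 fell in miniSOX cells. The shares called were 22.7%, 40.9% and 22.7%, beside 28.7%, 39.7% and 27.7% of all genes. The list's medians were below 0, at -0.15, -0.39 and -0.16. Among the genes that rose there, Atf3 rose by 1.64 ± 0.32 in SOX2 cells, 1.93 ± 0.32 in FNV cells and 2.22 ± 0.42 in miniSOX cells (limma adjusted p = 0.00167, 0.000239 and 0.00115). Phgdh rose by 1.61 ± 0.35, 2.12 ± 0.35 and 2.96 ± 0.46 (limma adjusted p = 0.00357, 0.000249 and 0.000272).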
